A study of Rattus norvegicus with 12 samples.

Results

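Interferon-stimulated genes are switched on when a cell senses interferon. Here 9 of them were followed in rat hippocampal neuron cultures, which also hold glial cells. The cultures had gone through oxygen and glucose deprivation (OGD), a culture model of ischemia, or a control treatment. The 9 genes were Irf1, Irf7, Mx1, Ifit2, Ifit3, Isg15, Oas1a, Gbp2 and Slfn2, out of 15154 named genes on the array. They were chosen by name, but with earlier results of these data known. Each gene was read on its brightest probe, the one with the highest mean log2 signal over the 12 arrays, and all 9 had at least 1 probe. One-color Agilent arrays measured total RNA from primary hippocampal cultures of Wistar rats, prepared at embryonic day 18 and kept 14 to 15 days in vitro. OGD cultures were held in an anaerobic chamber in a buffer with sucrose in place of glucose, and control cultures were held in air with CO2 in the same buffer with glucose. Both then recovered in conditioned medium for 7 h or 24 h, giving 4 groups of 3 arrays. The 3 arrays of a group came from independent cultures, and whether the 4 groups shared those cultures is not stated in the sources used here. No altered gene or further treatment is named for any group, and the controls went through the change of buffer too. Signals are given as log2 intensity relative to the median probe of the same array, so that levels are compared between arrays for 1 gene and never between genes.

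Type I interferons signal through the receptor pair Ifnar1 and Ifnar2 and the kinases Jak1 and Tyk2 to a complex with Stat2 and Irf9, which binds the interferon-stimulated response element (ISRE). Interferon gamma signals through its own receptor and acts on the gamma-activated site (GAS). The genes switched on in this way include transcription factors that carry the response further, such as Irf1 and Irf7, and effectors that block viral RNA or proteins, and in the brain they are best known from microglia and astrocytes, with a weaker response in neurons.

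The DNA before the annotated start of the genes is shown because the ISRE and the GAS are the sequences through which interferon acts on them. RefSeq promoter sequences (rat build GRCr8) matched 7 of the 9 genes, all but Ifit2 and Isg15, and the 250 bases before the start were searched on both strands. The letters searched were 2 copies of GAAA, or of its reverse TTTC, with any 2 bases between them for the core of the ISRE, and TTCNNNGAA, which reads the same on both strands, for the GAS. The ISRE core was found in 4 of the 7 genes (Irf7, Gbp2, Ifit3 and Oas1a) and in 3.41% of 33469 annotated promoters of the same length. The GAS was found in 3 of the 7 (Irf1, Oas1a and Slfn2) and in 7.67% of all promoters. Mx1 held neither in this window. The starts used for Irf7, Mx1 and Oas1a lie inside the annotated span of the gene, so that 250, 93 and 43 bases of their windows are within it. Apart from Slfn2 and Gbp2, the genes lie on chromosome 1 (Irf7, 205796956 to 205800543; Ifit2, 241515735 to 241521799; Ifit3, 241527326 to 241532469), 5 (Isg15, 172066369 to 172067656), 10 (Irf1, 38417935 to 38424946), 11 (Mx1, 50269056 to 50294699) and 12 (Oas1a, 41330423 to 41341130). The sequences of Slfn2 and Gbp2, which had the largest differences after OGD at 24 h and among the largest at 7 h, are printed in full, 5′ to 3′, with the matching bases in capitals. Slfn2 lies on chromosome 10 from 68450861 to 68457198 and its window is chr10:68450611-68450860, plus strand. Gbp2 lies on chromosome 2 from 234005727 to 234021812 and its window is chr2:234005477-234005726, plus strand.
Slfn2: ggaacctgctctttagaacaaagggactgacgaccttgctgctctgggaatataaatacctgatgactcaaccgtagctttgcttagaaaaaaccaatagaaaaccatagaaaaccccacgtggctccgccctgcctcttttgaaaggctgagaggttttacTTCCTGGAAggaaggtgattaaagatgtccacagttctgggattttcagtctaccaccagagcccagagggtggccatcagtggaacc
Gbp2: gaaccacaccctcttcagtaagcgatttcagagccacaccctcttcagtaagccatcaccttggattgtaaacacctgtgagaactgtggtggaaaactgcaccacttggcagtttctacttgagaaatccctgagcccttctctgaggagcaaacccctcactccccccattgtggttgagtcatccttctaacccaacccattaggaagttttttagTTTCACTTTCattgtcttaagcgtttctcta
The matches in the other 4 genes are shown with their neighbors in windows of 30 bases, so that the spacing of the repeats can be compared. They lie at chr10:38417783-38417812 for Irf1, chr1:205800073-205800102 (minus strand) for Irf7, chr1:241527272-241527301 for Ifit3, and chr12:41330257-41330286 and chr12:41330418-41330447 for Oas1a.
Irf1, GAS: acagcctgatTTCCCCGAAatgatgaggcg
Irf7, ISRE core: acagtttaggTTTCATTTTCccgagacgca
Ifit3, ISRE core: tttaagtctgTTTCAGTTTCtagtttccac
Oas1a, GAS: gtaacagcttTTCCCAGAAgaatctctgag
Oas1a, ISRE core: ctctcggGAAATGGAAACTGAAAatcttgt
In Oas1a the ISRE core occurred in 2 overlapping copies, at bases 41 to 32 and 35 to 26 before the start used, and the capitals mark both. These copies lie among the 43 bases inside the annotated span of Oas1a, and the Irf7 match lies inside that of Irf7. In Gbp2 and Ifit3 it began 31 and 44 bases before the start. These matches describe the letters only, and binding was not measured.

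**Figure D1:**
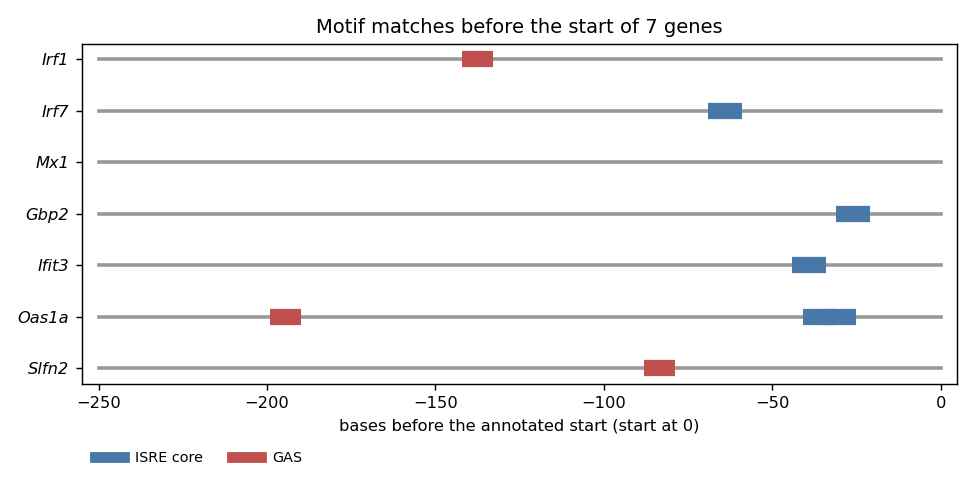
Positions of the ISRE core (blue) and GAS (red) matches in the 250 bases before the annotated start of the 7 genes with a RefSeq promoter sequence, with the start at 0 on the x axis. The ISRE cores of Gbp2, Ifit3 and Oas1a all lie within 44 bases of the start, and Mx1 has no match. The ISRE cores of Irf7 and Oas1a lie inside the annotated span of the gene.

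At 7 h after OGD, 8 of the 9 genes had a higher mean in OGD than in control arrays, and Mx1 had a lower one (with spike-in scaling, which moves the median of all genes to -0.88, 5 of the 9 were above 0). None of the 9 passed the criterion used throughout for a call, a limma p under 0.05 before adjustment with a difference of at least 2-fold, which 1.56% of the named genes passed as higher and 2.07% as lower. By p alone 0 of the 9 passed at 7 h, for which no share over all genes is given. The methods' t-test called 0 as well, where 0.93% of named genes were called higher. At 24 h, 7 genes had a higher mean in OGD (3 with spike-in scaling, where the median of all genes is -1.05), and 1 gene was called in each direction, Slfn2 as higher and Mx1 as lower. The backgrounds for those calls were 2.74% higher and 2.38% lower. The paper lists Slfn2 among the genes most raised at 24 h on these same arrays. The Slfn2 call is therefore not independent of how the genes were chosen. The median difference of the 9 genes was 1.06 on the log2 scale at 7 h and 0.52 at 24 h, against -0.11 and -0.03 over all named genes. No gene on the array had a Benjamini-Hochberg adjusted p under 0.05 at either time, the lowest being 0.117 at 7 h and 0.209 at 24 h, so every call here rests on p-values before adjustment, and precision is limited by the 3 arrays in each group.

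The groups can also be compared by whether their arrays overlap. At 7 h, none of the 9 genes had all OGD arrays above all control arrays, a pattern that 7.58% of named genes showed, and Mx1 had them all below, as did 17.9% of named genes. At 24 h, Irf1, Gbp2 and Slfn2 had all OGD arrays above the controls, against 9.04% of named genes, and Mx1 had them all below, against 7.54%.

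**Figure D2:**
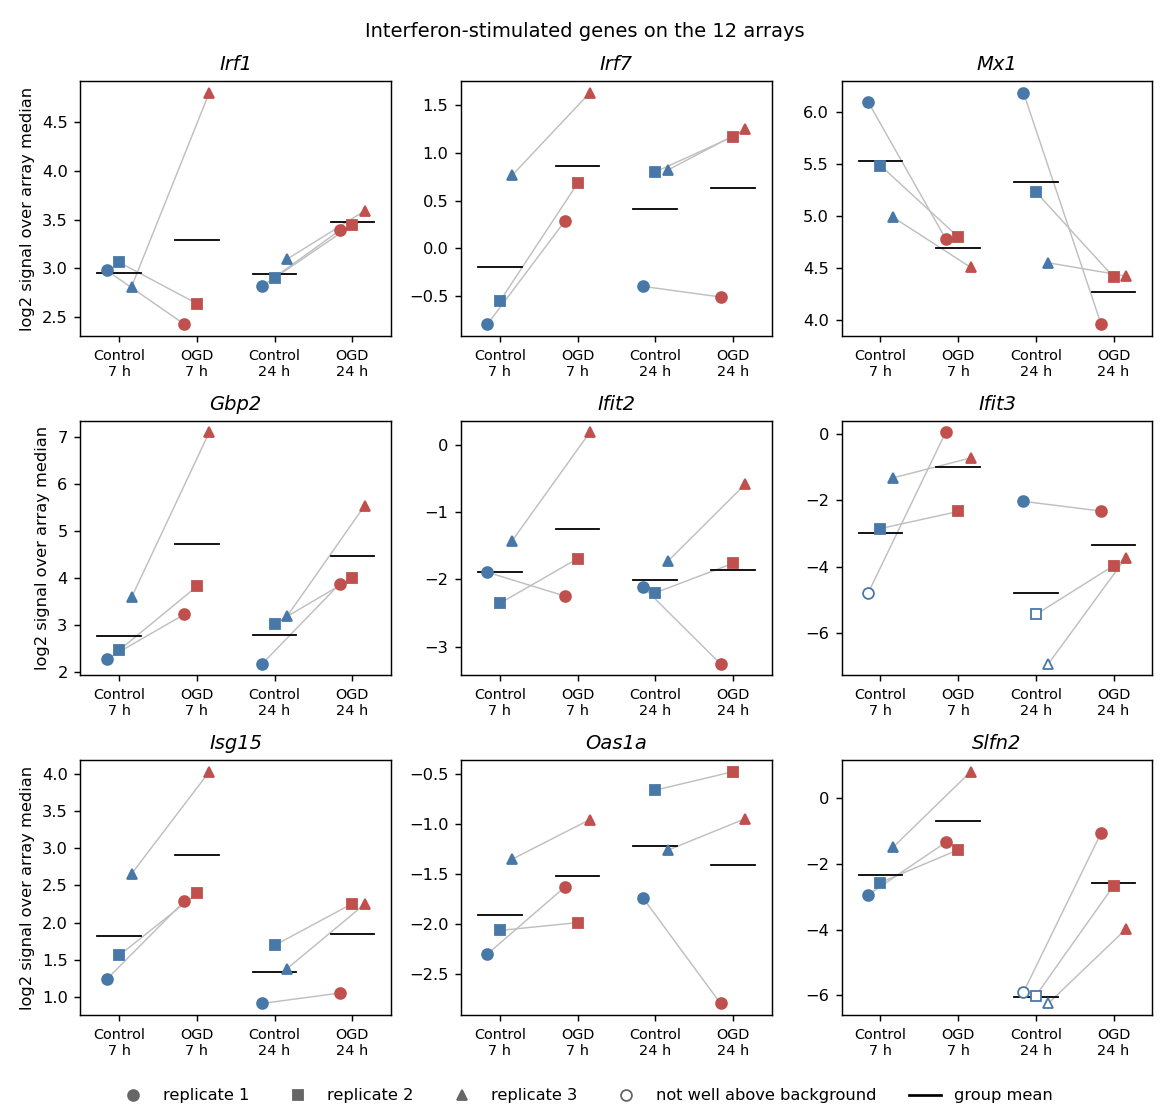
Log2 signal over the array median of the 9 genes on each of the 12 arrays, with controls in blue, OGD in red, a symbol for each replicate number, group means as black bars and gray lines joining the arrays that shared a slide. Open symbols are spots not well above background. Slfn2 is dim in all 3 controls at 24 h, and Mx1 is lower in OGD on every slide.

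The arrays came in pairs, since a control and an OGD array with matching time and replicate number shared each of the 6 slides. Replicate 3 at 7 h stood out for these genes. On the control side, 7 of the 9 genes were highest in replicate 3 at 7 h, where 32.7% of all named genes were highest, and on the OGD side 7 of the 9 were again highest in replicate 3, against 42.3% of all named genes. Within slides, the median OGD minus control difference of the 9 genes at 7 h was 0.95, 0.66 and 1.37 for replicates 1, 2 and 3, with 6, 7 and 8 genes higher in OGD. At 24 h the medians were -0.11, 0.54 and 0.87, with 4, 8 and 8 genes higher. When slide was added to the model as a replicate block, Irf7, Gbp2, Isg15 and Slfn2 passed the criterion as higher at 7 h and Gbp2 passed it with Slfn2 at 24 h, with 1.64% and 3% of named genes called higher. Mx1 remained lower at 24 h, with 1.71% of named genes called lower. The block gave no adjusted p under 0.05 either. OGD arrays were scanned 211 min before their control partners on the slides of replicates 1 and 2 at 7 h and 177 min before for replicate 1 at 24 h, whose OGD array also had the lowest median intensity of the 12, at 131. The part of scan time and of array brightness in the results was not tested.

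**Figure D3:**
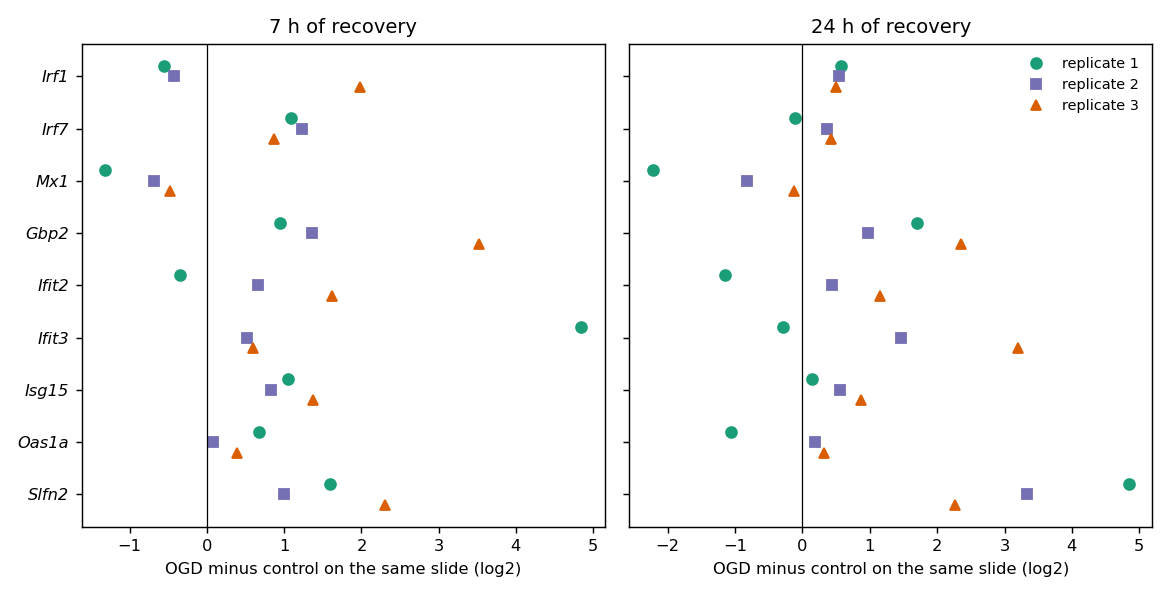
OGD minus control difference (log2, x axis) of each of the 9 genes on each slide, at 7 h (left) and 24 h (right), with 1 symbol per replicate. Irf7, Gbp2, Ifit3, Isg15, Oas1a and Slfn2 are to the right of 0 on all 3 slides at 7 h, Mx1 is to the left on all slides at both times, and Irf1 at 7 h is to the right on the slide of replicate 3 alone.

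Irf1 and Irf7 are the transcription factors of the group. Irf1 is induced by interferon gamma and activates many antiviral and antigen presentation genes. In the 7 h controls its log2 signal was 2.98, 3.06 and 2.81 in replicates 1, 2 and 3, and after OGD it was 2.43, 2.64 and 4.80. Replicates 1 and 2 were thus below every control and replicate 3 above them, and the mean difference of 0.34 (SE 0.49, adjusted p = 0.821) had a 95% interval from -0.75 to 1.42. Without the OGD array of replicate 3 the difference was -0.42. At 24 h the controls read 2.82, 2.90 and 3.09 and the OGD arrays 3.39, 3.45 and 3.59. The groups did not overlap, and the slides gave 0.57, 0.54 and 0.50, close to each other. The mean difference of 0.54 (SE 0.49, adjusted p = 0.626, 1.45-fold) was under 2-fold and so not called. Its SE came from a model that pools the spread of all 4 groups. A further, dimmer Irf1 probe gave 0.03 at 7 h and 0.34 at 24 h, and its groups overlapped at both times.

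Irf7 is the factor that amplifies type I interferon production once the response has begun. At 7 h the controls read -0.80, -0.55 and 0.77 and the OGD arrays 0.29, 0.68 and 1.63. Replicate 3 of the controls was above the lowest OGD arrays, so the groups overlapped, but OGD was higher on each slide, by 1.08, 1.23 and 0.87. The mean difference was 1.06 (SE 0.59, 95% interval -0.25 to 2.37, 2.09-fold). It was called with the slide as a block, where its SE was 0.20 and its adjusted p = 0.397, and without the control array of replicate 3 at 7 h, where it was 1.54. Without OGD replicate 3 at 7 h it was 0.68 and with normexp background correction 0.60, and neither was called. After 24 h the controls read -0.40, 0.80 and 0.82 and the OGD arrays -0.51, 1.17 and 1.25, and replicate 1 was lowest in both groups. The difference was 0.23 (SE 0.59, adjusted p = 0.905).

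Slfn2, a Schlafen family gene known for keeping immune cells quiescent, had the largest difference of the 9 genes at 24 h. At 7 h its controls read -2.94, -2.57 and -1.502 and its OGD arrays -1.35, -1.57 and 0.80. OGD was higher on every slide, by 1.59, 0.99 and 2.30, and only replicate 3 of the controls reached the OGD range. The mean difference was 1.63 (SE 0.76, adjusted p = 0.436, 3.09-fold, 95% interval -0.05 to 3.31), and with the slide block it was called (SE 0.49, adjusted p = 0.408). Leaving out any 1 of several arrays (replicate 3 of the 7 h controls, OGD replicate 1 or 2 at 7 h, OGD replicate 1 or 3 at 24 h) also brought it past the criterion, with differences from 1.63 to 2.06, whereas without OGD replicate 3 at 7 h the difference was 0.88.

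At 24 h the Slfn2 controls read -5.90, -6.00 and -6.24, and none of the 3 spots was well above background. The OGD arrays read -1.06, -2.67 and -3.98, all well above background, so the groups were far apart. The mean was -6.05 ± 0.17 (SD, n = 3) in control and -2.57 ± 1.46 in OGD. The fitted difference was 3.48 on the log2 scale, or 11.2-fold (SE 0.76, 95% interval 1.80 to 5.16, adjusted p = 0.252). Since no control spot was well above background, the size of this difference is not exact. Over the fits that left out 1 array the difference ranged from 2.73 to 4.19. With normexp background correction, which pulls dim spots together, it was 0.85 (SE 0.43) and was no longer called. The mean in OGD arrays was lower at 24 h than at 7 h (-2.57 against -0.71), and so was that of the controls (-6.05 against -2.34). The difference between the 2 effects was 1.85 (SE 1.07, adjusted p = 1.00), which did not pass.

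Plau and Cxcl10 were among the 3 named genes whose profile over the 12 arrays lay nearest to that of Slfn2, out of 12816 genes well above background on at least 3 arrays. Plau encodes the urokinase-type plasminogen activator, and Cxcl10 encodes an interferon-inducible chemokine. Their root mean square difference from the centered Slfn2 profile was 0.82 and 0.90, where Slfn2 itself varied by 2.13 about its mean.

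Gbp2, a guanylate-binding GTPase induced strongly by interferon gamma, had differences of similar size at both times. The 7 h controls read 2.27, 2.46 and 3.58 and the OGD arrays 3.22, 3.82 and 7.10. OGD replicate 3 at 7 h was the highest of the 12 arrays, and OGD replicate 3 at 24 h came next. The slides gave 0.95, 1.36 and 3.52, and the mean difference was 1.94 (SE 0.88, adjusted p = 0.423, 3.84-fold). Its 95% interval ran from -0.0019 to 3.89, just outside the criterion. With the slide block it was called (SE 0.52, adjusted p = 0.408). It was also called without replicate 3 of the 7 h controls (2.35), without OGD replicate 1 (2.69) or 2 (2.39) at 7 h, and without OGD replicate 3 at 24 h (1.94), whereas without OGD replicate 3 at 7 h the difference was 0.75. Centering on the upper quartile (2.06), quantile normalization (2.05) and the deposited values (1.97) led to a call as well. It was not called with normexp, spike-in scaling, the methods' t-test or each time fitted alone. Nor was it called without control replicate 1 or 2 at 7 h.

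At 24 h the Gbp2 controls read 2.17, 3.02 and 3.18 and the OGD arrays 3.87, 3.99 and 5.54. The groups did not overlap, with 1.71, 0.97 and 2.36 on the slides. The difference of 1.68 (SE 0.88, adjusted p = 0.421, 3.20-fold) was not called with all arrays and was called with the slide block (SE 0.52, adjusted p = 0.372), with each time fitted alone (SE 0.51) or without OGD replicate 3 at 7 h (SE 0.51).

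Isg15 encodes a ubiquitin-like protein that is conjugated to other proteins in the antiviral response. At 7 h the controls read 1.24, 1.56 and 2.66 and the OGD arrays 2.29, 2.39 and 4.02. As for Irf7, replicate 3 was highest in both groups and every slide was higher in OGD, by 1.05, 0.83 and 1.37. The mean difference was 1.08 (SE 0.53, adjusted p = 0.458, 2.12-fold). It was called under the slide block (SE 0.22, adjusted p = 0.397), without replicate 3 of the controls (1.502), without OGD replicate 1 (1.39) and with upper-quartile centering (1.20). Without OGD replicate 3 it was 0.52 and with normexp background correction 0.50, and neither was called. After 24 h its controls read 0.92, 1.70 and 1.38 and the OGD arrays 1.06, 2.25 and 2.25. OGD was again higher on each slide, by 0.14, 0.56 and 0.87, with a mean difference of 0.52 (SE 0.53, adjusted p = 0.670).

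Ifit2, Ifit3 and Oas1a are effectors that recognize or degrade viral RNA, the Ifit proteins by binding it and Oas1a by making the messenger that activates RNase L. Ifit3 was close to background in many arrays. At 7 h its controls read -4.80, -2.85 and -1.33, with replicate 1 not well above background, and its OGD arrays 0.05, -2.34 and -0.73. The difference of 1.99 (SE 1.21, adjusted p = 0.525) came mainly from the slide of replicate 1, which gave 4.85 where the others gave 0.51 and 0.60. After 24 h its controls read -2.03, -5.44 and -6.92, with replicate 1 alone well above background, and the OGD arrays -2.32, -3.97 and -3.72. The difference was 1.46 (SE 1.21, adjusted p = 0.589). With 1 array left out it ranged from 0.40, without the control of replicate 3, to 2.84, without that of replicate 1. The latter passed the criterion, but neither remaining control was then well above background, so that its size is not exact.

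Ifit2 read from -2.35 to -1.42 in the 7 h controls and from -2.25 to 0.19 in OGD, again with replicate 3 highest in both. Its differences were 0.64 at 7 h (SE 0.70, adjusted p = 0.739) and 0.15 at 24 h (SE 0.70, adjusted p = 0.970). Without OGD replicate 3 at the same time they were -0.080 and -0.50. Oas1a read from -2.30 to -1.35 in the 7 h controls and from -1.98 to -0.96 in OGD, a difference of 0.38 (SE 0.55, adjusted p = 0.821). At 24 h it read from -1.74 to -0.66 in control and from -2.79 to -0.48 in OGD, a difference of -0.19 (SE 0.55, adjusted p = 0.925) that was 0.51 without OGD replicate 1. The Ifit2 and Oas1a groups overlapped at both times, and the intervals of their differences reached from -0.90 to 2.18 and from -0.84 to 1.61 at 7 h, so a 2-fold rise of either gene lay within them.

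**Figure D4:**
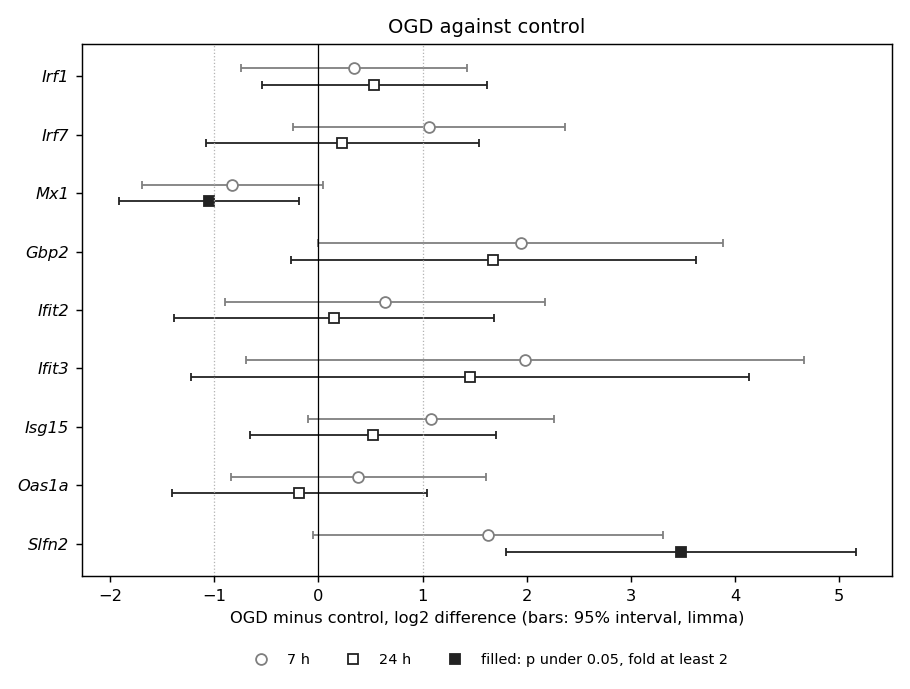
OGD minus control difference (log2) of each gene at 7 h (circles) and 24 h (squares), with 95% intervals from limma as bars and dotted lines at a 2-fold change. Filled symbols passed the criterion of a p under 0.05 before adjustment with at least a 2-fold difference, which among these genes only Mx1 (-1.05) and Slfn2 (3.48) at 24 h did.

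Mx1, a dynamin-like GTPase that blocks virus replication and is among the most widely used markers of type I interferon action, had all its OGD arrays below the controls at both times. At 7 h the controls read 6.09, 5.48 and 4.99 and the OGD arrays 4.78, 4.80 and 4.51. All OGD arrays were below all controls, with slide differences of -1.31, -0.68 and -0.48. The mean difference of -0.83 (SE 0.39, adjusted p = 0.442) did not pass the criterion, and without replicate 3 of the controls it was -1.09 and did. After 24 h its controls read 6.18, 5.23 and 4.55 and the OGD arrays 3.96, 4.41 and 4.42.

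Mx1 was thus again lower in every OGD array than in any control at 24 h, but the slides differed widely, at -2.22, -0.82 and -0.13. The mean was 5.32 ± 0.82 (SD, n = 3) in control and 4.27 ± 0.26 in OGD, a difference of -1.05 (SE 0.39, 95% interval -1.92 to -0.19, adjusted p = 0.312) or 2.08-fold lower. Replicate 1 carried much of it, as the difference was -0.62 without the control of replicate 1, -0.90 without its OGD array and -0.47 without that slide, and was then not called. It fell just short of 2-fold when arrays were centered on the upper quartile (-0.94) or quantile normalized (-0.94). The effect at 24 h did not differ detectably from that at 7 h (-0.23, SE 0.55, adjusted p = 1.00).

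The related gene Mx2, named here after its values were seen, gave the opposite sign. Its OGD arrays were all above the controls at both times, with differences of 0.81 at 7 h (SE 0.28, adjusted p = 0.324) and 0.70 at 24 h (SE 0.28, adjusted p = 0.331), under 2-fold and so not called. The 95% intervals, 0.18 to 1.43 and 0.07 to 1.32, lay above 0. The genes nearest to Mx1 in profile were 6330403K07Rikl, Gria4, which encodes an AMPA receptor subunit, and Ypel4, at root mean square differences of 0.25, 0.25 and 0.27 where Mx1 varied by 0.65. Of 18 neuron markers 6 were called lower at 24 h and 2 at 7 h, against 2.38% and 2.07% of all named genes. The summed linear signal of these markers, in multiples of the array median, was 962 to 1315 in 24 h controls and 545 to 938 in OGD arrays. At 7 h it was 853 to 1120 in controls and 816 to 1131 in OGD arrays, so the ranges overlapped. The part of the neuron markers in the Mx1 result was not tested, and in these bulk cultures fewer cells of a type and less RNA per cell cannot be told apart.

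Markers of the other cells that such cultures can hold are given beside the genes that were higher. Of all named genes, 1.56% were called higher and 2.07% lower at 7 h, and 2.74% and 2.38% at 24 h. Markers called higher are named and those called lower are only counted, so the medians of the whole lists are given as well. At 7 h and 24 h the median log2 difference was 0.18 and 0.32 for microglia and 0.14 and -0.11 for astrocyte markers. It was 0.02 and 0.33 for vascular and fibroblast markers and -0.15 and 0.07 for oligodendrocyte markers. Of 16 microglia markers 1 was called higher at 7 h (Cx3cr1, 1.02) and 1 at 24 h (Spi1, 2.20), 2 were well above background on no array, and the summed signal was 49.4 to 70.1 in control and 61.1 to 74.9 in OGD at 7 h and 60.1 to 73.0 against 61.3 to 99.4 at 24 h. None of 14 astrocyte markers was called, with sums of 1208 to 1356 in control and 1475 to 1828 in OGD at 7 h and 1243 to 1492 against 1065 to 1638 at 24 h. Of 16 vascular and fibroblast markers 3 were called lower at 7 h and 1 higher at 24 h (Pdgfrb, 1.34), 1 was well above background on no array, and the sums were 46.3 to 153 against 66.3 to 190 at 7 h and 40.0 to 154 against 137 to 247 at 24 h. Of 14 oligodendrocyte markers 1 was called lower at 7 h, with sums of 223 to 232 against 119 to 259 at 7 h and 263 to 361 against 302 to 492 at 24 h. All 18 neuron markers were well above background on every array. The part of these cells in the results for the interferon-stimulated genes was not tested.

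Among the 9 genes, 0 differences between the effects at 7 h and 24 h reached a limma p under 0.05 before adjustment, against 3.42% of named genes. With the slide block the effect on Irf7 was smaller at 24 h than at 7 h, by -0.83 (SE 0.29), and reached it. Slfn2 reached it in that fit too, but since its 24 h controls were not well above background the size of its difference between the times is not exact, and with normexp it was -0.078. For Irf1 the difference between the times rested on 1 array, being 0.20 with all arrays and 0.96 (SE 0.26) without OGD replicate 3 at 7 h.

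The rest of the interferon system was read from lists of 174 further genes, of which 126 had a named probe. These lists too were chosen with earlier results of these data known. Among these, 3 were called higher and none lower at 7 h, and 5 higher and none lower at 24 h, to be read against 1.56% and 2.74% of all named genes called higher. All calls fell on interferon-stimulated genes (82 with a probe), and none on the 44 genes of interferon production and signaling. With shares of 1.56% and 2.74% over all named genes, few or no calls would be expected among 44 genes. The lack of calls there is therefore not read as a difference between the lists. The median difference was 0.29 at 7 h and 0.32 at 24 h over the 82, and 0.03 and 0.04 over the 44.

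Of the interferons, 5 had a named probe and none passed the test. Ifna4, a type I interferon, was well above background on all 12 arrays, with differences of 0.24 and 0.13 at 7 h and 24 h, and Ifnk was on none. Ifnb1 was well above background on 1 of 3 arrays in both control groups, on none at 7 h after OGD and on 2 at 24 h, with differences of -0.08 and 0.80. Ifng was well above background on 1 and 2 control arrays and on 0 and 1 OGD arrays at 7 h and 24 h. Ifnar1, Ifngr1 and Ifngr2 were well above background on all arrays and Ifnlr1, a chain of the type III receptor, on none. No difference of these chains passed the test, with Ifnar1 at -0.30 and -0.19, Ifngr1 at -0.27 and -0.03, and Ifngr2 at -0.13 and -0.12 at 7 h and 24 h. Ifnar2 and Tyk2 had no named probe.

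Downstream of the receptors, Jak1 had all OGD arrays below the controls at 7 h, a difference of -0.64 (SE 0.42, adjusted p = 0.551), and it differed by -0.59 at 24 h. Stat2, which type I interferons activate, differed by 0.15 and -0.23, and Irf9, its DNA-binding partner, by -0.01 and 0.29. Irf3, the factor that starts interferon transcription, differed by 0.13 and -0.15. None of these passed the test. Usp18, which removes Isg15 from proteins and dampens receptor signaling, differed by 0.26 and 0.19. Socs1, an inhibitor of Jak kinases, differed by 0.56 at 7 h (SE 0.24, adjusted p = 0.396), under 2-fold and so not called, and by 0.24 at 24 h.

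The calls among other interferon-stimulated genes were on membrane restriction factors and chemokines. Bst2, or tetherin, which holds budding viruses at the cell surface, read 0.40, 0.21 and 0.74 in the 7 h controls and 1.32, 1.19 and 2.21 in OGD, a difference of 1.12 (SE 0.39, adjusted p = 0.322) with no overlap. The difference at 24 h was 1.201 (adjusted p = 0.290), with 1 control array, of replicate 3, above the lowest OGD array. Without OGD replicate 3 the 7 h difference was 0.80, without control replicate 2 it was 1.00, and without control replicate 1 the 24 h difference was 0.93; each was then no longer called.

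Ifitm1 and Ifitm2, which hinder virus entry at membranes, were called at 24 h. Ifitm1 read 1.19, 2.57 and 3.40 in control and 4.41, 3.93 and 4.01 in OGD, a difference of 1.73 (SE 0.56, adjusted p = 0.290). Ifitm2 read 2.52, 3.32 and 4.33 in control and 4.58, 4.46 and 5.10 in OGD, a difference of 1.32 (SE 0.52, adjusted p = 0.317). In both genes every OGD array was above every control, and the controls, not the OGD arrays, held most of the spread. Without the control of replicate 1 these differences were 1.13 and 0.89, and without control replicate 2 or OGD replicate 3 that of Ifitm2 was 1.29 or 1.13; the 3 values of Ifitm2 were not called. At 7 h the differences were 0.79 and 0.85 and neither was called.

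Of 5 interferon-inducible chemokines, 2 were called higher at each time. Cxcl10, which attracts activated T cells, read -3.73, -2.76 and -1.83 in the 24 h controls, with replicate 1 not well above background, and 0.78, -0.65 and 0.30 in OGD. The difference was 2.92 (SE 0.93, adjusted p = 0.290) with no overlap, and at 7 h it was 1.88 (adjusted p = 0.458) and not called. The paper lists Cxcl10 too among the genes most raised at 24 h on these arrays. Cxcl11, a ligand of the same receptor, was called at 7 h with a difference of 2.90 (SE 1.18, adjusted p = 0.383), although its controls were well above background on 1 of 3 arrays. Without control replicate 1 or 2 or OGD replicate 3 at 7 h the Cxcl11 difference was 2.69, 1.99 or 1.85 and was not called. Cxcl16 was called at both times, with 1.098 (adjusted p = 0.317) at 7 h and 1.18 (adjusted p = 0.285) at 24 h and no overlap at either. At 7 h it was 0.94 without control replicate 2 and 0.64 without OGD replicate 3, and then not called. Without the slide of replicate 1 at 24 h, none of the 5 genes called at 24 h was called.

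**Figure D5:**
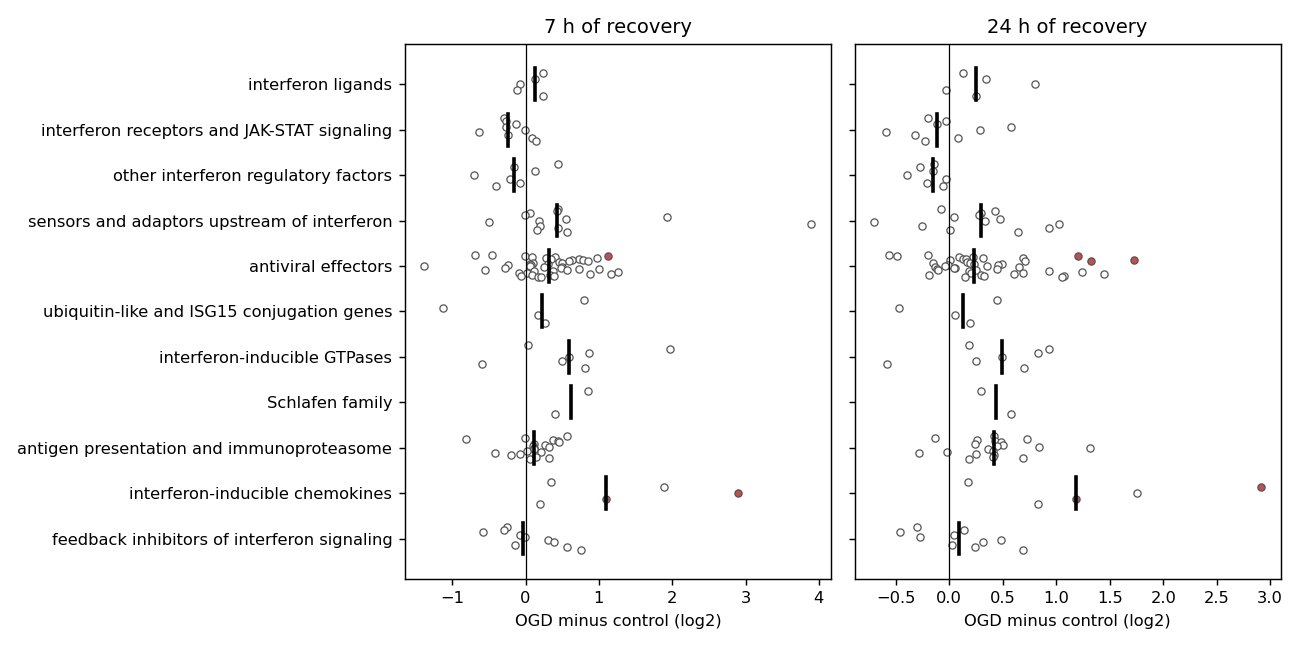
OGD minus control difference (log2, x axis) of the 126 further interferon genes with a probe, by list, at 7 h (left) and 24 h (right). Each circle is a gene, filled where it was called, and black bars are list medians; the chemokines have the highest medians, 1.098 and 1.18, and the receptor and JAK-STAT list has the lowest, -0.24, at 7 h.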

How the data were processed

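RNA of 12 samples (200 ng each) was labeled with Cy3, hybridized to 1 array per sample and read with Agilent Feature Extraction 10.5.1.1. The files deposited by the authors hold, for each spot, the processed signal, a background-subtracted intensity, and flags for background and saturation. The authors' table of deposited values holds log2 intensities centered on the median, and was used as an alternative.

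The log2 of each spot was taken, and spots flagged as outliers were left out. The spots of each of 30367 probes were then averaged, and the median of each array was subtracted. Keeping the outlier spots, as an alternative, also gave 0 called members at 7 h and 2 at 24 h. Accessions named 18004 probes through RefSeq, for 15154 genes, and the other probes are unnamed here. Genes were read on the brightest probe. All 12 arrays entered 1 limma model of 4 groups (lmFit and eBayes, two-sided, Benjamini-Hochberg adjustment over all probes), in place of the t-test of the methods, which was an alternative. A probe was called at a p under 0.05 before adjustment with a fold of at least 2. Genes outside the 9 were named if they were core interferon signaling genes, were called (at most 6 per list), or were 1 of the 3 nearest profiles to a called member, and some genes that this rule names are not reported here. The members and lists were chosen with earlier results of these data known. Alternatives were other centering, quantile and spike-in scaling, normexp (on the median spot signal, offset 50), leaving out dim probes (under 3 arrays above background), slide as a replicate block, and leaving out each array. Leaving out 2 whole slides was added after seeing the data. The fits were tested on simulated data. The tools were R 4.3.3, limma 3.58.1 and Python 3.11.15. Spots well above background were 78.3% to 87.1% per array.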

Additional observations from a re-analysis of the deposited data

How the results depend on the processing

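With 3 arrays a group and dim spots for Slfn2 and Ifit3 in controls, single arrays decide several calls. Beside 0 called members at 7 h and 2 at 24 h stand 2 and 1 with upper-quartile centering, 1 and 1 with quantile normalization, 2 and 1 with normexp, 1 and 2 without dim probes, 1 and 2 with the deposited values, 0 and 1 with spike-in scaling and 0 and 1 with the methods' t-test (3 at 24 h with each time fitted alone). These counts take both directions, and the 2 with normexp at 7 h were Ifit3 (1.08) and Mx1 (-1.37). In both directions and over all 30367 probes, calls at 7 h and 24 h numbered 1136 and 1721 in the main fit. They numbered 1057 and 1643 with upper-quartile centering, 1185 and 1365 with quantile normalization, and 2918 and 743 with normexp. With spike-in scaling they were 349 and 542, with the t-test 808 and 634, and with the deposited values 1129 and 1714. The share of all named genes called higher at 7 h was 1.56% in the main fit. It was 1.8% with upper-quartile centering or without dim probes, 1.77% with quantile normalization and 5.7% with normexp. With the deposited values it was 1.65%, with spike-in scaling 0.191% and with the t-test 0.93%. Leaving out 1 array gave 0 to 5 called members at 7 h, 1 to 3 at 24 h and 0 to 2 members whose effects differed between the times. Calls over all probes then ran from 664 to 1750 at 7 h and from 814 to 3045 at 24 h. The 5 came without control replicate 3 at 7 h, with Mx1 as lower and Irf7, Gbp2, Isg15 and Slfn2 as higher, where 2.18% of named genes were called higher. Without the slide of replicate 3 at 7 h the counts were 0 at 7 h, 3 at 24 h and 2 differing between the times, and without that of replicate 1 at 24 h 2 at 7 h and 1 at 24 h. The cause of these changes was not tested, beyond the smaller number of arrays.

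The replicate block (slide) gave 4 members at 7 h, 3 at 24 h and 2 differing between the times (Irf7 and Slfn2, the latter against controls not well above background at 24 h) as a fixed term, and 1 and 2 as a random term. For the other interferon genes the fixed term gave 8 at 7 h and 10 at 24 h, with 1.64% and 3% of all named genes called higher. Same-numbered control and OGD arrays deviated together weakly, their deviations over probes correlating at -0.05, 0.11 and -0.01 (7 h) and at 0.08, 0.17 and -0.01 (24 h), so the numbers were not taken to pair the cultures.

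The other interferon genes, 3 called at 7 h and 5 at 24 h, came to 5 at 7 h with upper-quartile centering or quantile normalization, 9 and 2 with normexp, 1 and 0 with spike-in scaling, and 1 and 3 with the t-test. They were 1 to 13 at 7 h and 4 to 7 at 24 h with 1 array left out (13 without control replicate 3 at 7 h), 8 at 24 h without the slide of replicate 3 at 7 h and 0 at 24 h without that of replicate 1. The 7 h counts are to be read against the share of all named genes called higher under the same setting. That share was 1.56% in the main fit, 1.8% with upper-quartile centering and 1.77% with quantile normalization. It was 5.7% with normexp, 0.191% with spike-in scaling, 0.93% with the t-test and 2.18% without control replicate 3. Shares of named genes at 24 h are given for the main fit and the slide block only. For the differences between the times a share is given for the main fit only. The counts under other settings have no such share beside them and are not read as results. Over all probes, 1784 were called at 24 h without the slide of replicate 3 at 7 h and 539 without that of replicate 1 at 24 h.

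Spike-in scaling, which rested on 1 spike-in probe, moved the median of all named genes to -0.88 and -1.05, and turned the sign of Irf1 (-0.44), Ifit2 (-0.14) and Oas1a (-0.40) at 7 h, of Irf1 (-0.49), Irf7 (-0.80), Ifit2 (-0.88) and Isg15 (-0.50) at 24 h, all above that shift, and of the Irf1 difference between the times (-0.046). Normexp turned Irf1 at 7 h (-0.22), Oas1a at 24 h (0.35) and the differences between the times of Ifit2 (0.034) and Slfn2 (-0.078), and quantile normalization Ifit2 at 24 h (-0.0096). With 1 array left out, values spanned 0 for Irf1 (-0.42 to 0.77) and Ifit2 (-0.080 to 1.14) at 7 h, for Irf7 (-0.17 to 0.80), Ifit2 (-0.50 to 0.84) and Oas1a (-0.65 to 0.51) at 24 h, and for the differences between the times of Irf1 (-0.23 to 0.96), Mx1 (-0.61 to 0.20), Gbp2 (-1.01 to 0.93), Ifit2 (-1.14 to 0.23), Ifit3 (-1.59 to 0.85) and Oas1a (-1.03 to 0.13). Without the slide of replicate 3 at 7 h it turned for Irf1 at 7 h (-0.49) and the Gbp2 difference between the times (0.52), and without that of replicate 1 at 24 h for Oas1a at 24 h (0.25) and the differences between the times of Mx1 (0.35), Ifit2 (0.15) and Ifit3 (0.35). No value whose sign turned passed the criterion.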
